A study of Homo sapiens with 24 samples.

Results

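Gene expression in HEK293T cells transfected with snaR-A, a short noncoding RNA, was compared with that in cells transfected with eGFP, enhanced green fluorescent protein, over 6 of the study's 24 RNA-seq libraries. These were the 3 libraries labelled HEK293T with snaR-A and the 3 labelled HEK293T with GFP, and no other library entered the fit between them. HEK293T is a transformed human embryonic kidney line. The study transfected HEK293T and the lung line A549 with plasmids for snaR-A, a scramble RNA, the splicing factor SF3B2 or eGFP and collected RNA 48 h later, with 3 biological replicates per plasmid and line. The snaR-A plasmid carried a U6 promoter, which RNA polymerase III reads, as did the scramble plasmid. The eGFP plasmid was a pcDNA expression vector coding for flag-tagged eGFP, a protein mRNA made by RNA polymerase II. The snaR-A and eGFP groups therefore differed in the insert, the promoter and the vector, and the parts these play cannot be told apart from the 6 libraries. Transfection was transient, so a library mixes cells that took up plasmid with cells that did not.

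The snaR-A genes are a primate-specific cluster of near-identical short genes, transcribed by RNA polymerase III. The family is expressed in testis and in many tumours and immortal lines. The study's question was how snaR-A bears on the splicing machinery. The comparison here asks which mRNAs differ between cells given the snaR-A plasmid and cells given the eGFP plasmid.

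The transfected sequence itself is shown here through its genomic copies, since the insert was not read in the files. RefSeq places 14 snaR-A copies on chromosome 19 of GRCh38, 121 to 122 bases long, of which 10 are identical to SNAR-A6. The copies fall into 3 distinct sequences, the most distant 98.4% identical to SNAR-A6. The sequences below run 5′ to 3′ on the sense strand, SNAR-A6 at chr19:50103955-50104075 on the minus strand and SNAR-A12 at chr19:47907678-47907799 on the plus strand, with capitals at bases that differ from SNAR-A6.
SNAR-A6: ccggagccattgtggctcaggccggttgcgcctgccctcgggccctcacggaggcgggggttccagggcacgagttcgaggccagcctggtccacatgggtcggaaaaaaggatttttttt
SNAR-A12: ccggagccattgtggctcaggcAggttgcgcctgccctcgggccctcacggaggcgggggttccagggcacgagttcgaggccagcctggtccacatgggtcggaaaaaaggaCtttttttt
Both end in a run of T, the signal at which RNA polymerase III stops. None of the 28 snaR gene symbols looked for had a row in the deposited table, and eGFP had none either. The level of the overexpressed RNA was therefore not analysed here, and the group labels could not be checked against it.

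The libraries were deep and closely alike. Their totals lay between 195186194 and 250377583 estimated counts, and a count of 0 allows up to 3 counts, or 0.0120 to 0.0154 CPM, counts scaled to a fixed library total. Across genes, the lowest rank correlation within a group was 0.986 and the highest between the groups was 0.991, so the ranges overlapped. HEK293T markers, 12 genes, summed to 718 to 745 CPM in eGFP and 794 to 839 CPM in snaR-A libraries, against 216 to 259 CPM over all A549 libraries. INA of this list was higher in A549, at 136 to 148 CPM with eGFP, than in HEK293T, at 28.2 to 33.8 CPM. No gene of that list was at 0 in every library of either group. eGFP replicate 3 stood apart in that it carried A549 RNA. Over 28 genes that A549 expresses and HEK293T does not, it held 5.05% of the A549 level, with quartiles of 4.19% and 5.6%, where the other 5 libraries held 0.00678% to 0.0134%. The 12 A549 markers summed to 901 CPM in it, to 52.2 and 54.6 CPM in the other eGFP libraries and to 60.9 to 66.6 CPM with snaR-A. Counts over all genes and the values of named genes and lists are therefore also given without eGFP replicate 3 where it bears on them. RNA from mitochondrial genes made up 5.58% to 7.05% of the counts in eGFP libraries and 4.09% to 5.61% in snaR-A libraries. In bulk RNA, fewer cells expressing a gene and less RNA per cell cannot be told apart.

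Small differences in many genes separated the groups. Of 22900 genes tested with edgeR's quasi-likelihood test and Benjamini-Hochberg adjustment, 1537 were higher with snaR-A and 1889 lower at an adjusted p under 0.05, which is 6.71% and 8.25%. The median size of the log2 fold change was 0.305 among the higher genes and 0.471 among the lower genes, and over all genes tested the median log2 fold change was -0.00368. With the study's further limit of a change of more than 1 on the log2 scale, 50 genes were higher (0.218%) and 495 lower (2.16%). Most of these were scarce, since 48 of the 50 and 463 of the 495 had a mean under 1 on the log2 CPM scale. The groups did not overlap in 9121 genes (39.8%), and at an unadjusted p under 0.05 stood 7562.

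Leaving out eGFP replicate 3 kept most of the calls. Of 23374 genes tested on the remaining 5 libraries, 1323 were higher (5.66%) and 1801 lower (7.71%), and past the log2 limit 58 were higher (0.248%) and 506 lower (2.16%). The fits with and without this library shared 1021 higher genes, 66.4% of the first list and 77.2% of the second, and 1514 lower genes, 80.1% and 84.1%. Past the log2 limit they shared 28 higher genes (56.0% and 48.3%) and 403 lower genes (81.4% and 79.6%). The number of calls depended more on the snaR-A libraries. A call described as lost without any snaR-A library was lost whichever of the 3 was left out. Without snaR-A replicate 1, 133 genes were higher and 345 lower, without replicate 2 they were 231 and 486, and without replicate 3 they were 238 and 492. Omitting eGFP replicate 1 left 448 and 711, and omitting eGFP replicate 2 left 1007 and 1217. Past the log2 limit the counts without snaR-A replicate 1, 2 or 3 were 9, 18 and 18 higher and 151, 217 and 236 lower, and without eGFP replicate 1 or 2 they were 40 and 45 higher and 286 and 309 lower. In all 6 of these fits 107 genes were called higher and 283 lower, and past the log2 limit 5 and 119.

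**Figure D1:**
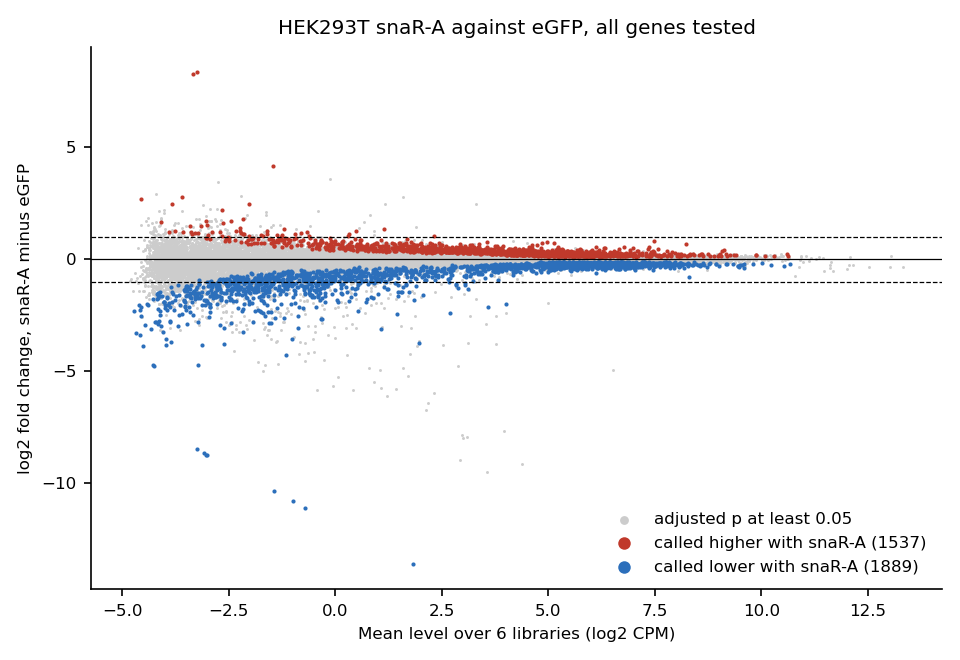
Each point is a gene tested, with its mean level over the 6 libraries (log2 CPM) on the horizontal axis and its log2 fold change, snaR-A minus eGFP, on the vertical axis. The 1537 genes called higher (red) and 1889 called lower (blue) form narrow bands at high level, and most calls beyond the dashed lines at 1 and -1 lie at low level.

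Genes higher with snaR-A included secreted proteins, metabolic proteins and noncoding RNAs. The 12 largest differences among genes with a mean of at least 1 on the log2 CPM scale were LINC02609, RDM1, ABI3BP, ADAMTS1, H4C14, SNED1, SDHAF4, HILPDA, A1BG, SULT1A1, MCF2L2 and TMC3-AS1, between 1.35 and 0.71 on the log2 scale. All levels that follow are TMM-scaled CPM in replicates 1, 2 and 3 in that order. The choice of these genes required groups that did not overlap, so the two-sided exact permutation test gives each p = 0.1, the smallest that 3 libraries against 3 allow, by construction.

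RDM1 (chromosome 17, 35918066 to 35930773, GENCODE 44 on GRCh38) codes for a protein with an RNA recognition motif and, apart from it, a motif shared with the recombination factor RAD52. RDM1 measured 2.87, 3.64 and 2.81 CPM in eGFP libraries and 7.23, 6.19 and 5.89 with snaR-A. Its log2 fold change was 1.03 (SE 0.13, adjusted p = 0.00935) and 0.96 without eGFP replicate 3 (adjusted p = 0.0131). Every snaR-A library lay well above the eGFP range, while with the SF3B2 plasmid the gene was at 0 in 2 libraries and at 1.26 CPM in the other. Scramble libraries held 7.24 to 8.14 CPM of RDM1. In the fit over all 12 HEK293T libraries the RDM1 call was lost (1.05, adjusted p = 0.552). HILPDA (chromosome 7, 128455849 to 128458418), a lipid droplet protein induced by low oxygen, measured 21.8, 18.4 and 21 CPM with eGFP and 39.6, 30.6 and 33.2 with snaR-A, a log2 fold change of 0.73 (SE 0.11, adjusted p = 0.0119). SDHAF4 (chromosome 6, 70566917 to 70589569), an assembly factor of succinate dehydrogenase, gave 8.84, 7.55 and 8.47 CPM against 15.7, 13 and 13.7, a log2 fold change of 0.75 (SE 0.10, adjusted p = 0.00962). In both genes the eGFP libraries were tight and replicate 1 was the highest of the snaR-A group. Their values without eGFP replicate 3 were 0.76 (adjusted p = 0.0163) and 0.77 (adjusted p = 0.0126). The scramble libraries held 61.7 to 74.6 CPM of HILPDA and 19.9 to 26.4 of SDHAF4, above every snaR-A library.

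ADAMTS1 (chromosome 21, 26835755 to 26845409), a secreted metalloprotease of the extracellular matrix, measured 134, 108 and 126 CPM with eGFP and 261, 184 and 216 with snaR-A, a log2 fold change of 0.82 (SE 0.13, adjusted p = 0.0146). The call was lost without snaR-A replicate 3 (adjusted p = 0.0535), and over the 6 omissions the log2 fold change ran from 0.68 to 0.94. With scramble ADAMTS1 stood at 447 to 513 CPM, above every snaR-A library. Other matrix proteins stood beside it. SNED1 measured 2.50, 2.38 and 2.34 CPM against 4.82, 4.05 and 3.63 (log2 fold change 0.77, adjusted p = 0.0134), a call kept in each omission. ABI3BP measured 2.27, 2.01 and 2.03 CPM against 4.89, 2.94 and 4.25 (0.91, adjusted p = 0.0241), but its call was lost without eGFP replicate 1 or 2 or snaR-A replicate 1 or 3, with an adjusted p of up to 0.0784. Scramble libraries held 6.92 to 8.36 CPM of ABI3BP, above snaR-A, and 4.56 to 6.48 of SNED1, overlapping snaR-A.

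The long noncoding RNA LINC02609 (chromosome 1, 90769086 to 90851671) had the largest fitted increase of the 12. It measured 1.01, 1.17 and 1.36 CPM with eGFP and 3.38, 3.61 and 2.18 with snaR-A, a log2 fold change of 1.35 (SE 0.21, adjusted p = 0.0138) that reached 1.46 without eGFP replicate 3. The snaR-A libraries were uneven, with replicate 3 the lowest, and the call was lost without snaR-A replicate 1 or 2 (adjusted p up to 0.0606). With scramble LINC02609 stood at 4.81 to 6.42 CPM, above every snaR-A library. SULT1A1, a sulfotransferase of phenols and drugs, was even within each group, with 2.85, 2.79 and 2.98 CPM against 4.82, 4.86 and 4.73 (log2 fold change 0.72, SE 0.08, adjusted p = 0.00661). Of its annotated sequence, 32.8% of 31-base words also occur in another gene, so reads of its paralogs may count here. H4C14, a replication-dependent histone H4 gene, gave 20.4, 25.1 and 20.1 CPM against 39.6, 38 and 36.8 (0.78, adjusted p = 0.00661). It shares 98.6% of its words with its copy H4C15, and reads from the pair cannot be assigned. The H4C14 call was lost in the fit over all 12 HEK293T libraries (adjusted p = 0.0539). Its scramble libraries went the other way, at 16.9 to 19.5 CPM, below every eGFP library. The remaining 3, A1BG, MCF2L2 and TMC3-AS1, had log2 fold changes of 0.72, 0.72 and 0.71. Each lost its call without snaR-A replicate 1, with an adjusted p of up to 0.0565, 0.13 and 0.0645 over the omissions. MCF2L2 lost it in each of the 6 and gave 0.55 without eGFP replicate 3 (adjusted p = 0.0548). The others lost it also without snaR-A replicate 3 (A1BG) or without eGFP replicate 1 and snaR-A replicate 2 (TMC3-AS1). Of A1BG's words 49.7% occur in another gene.

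The same rule without eGFP replicate 3 named 6 further genes, none of them called with all 6 libraries. STC1, a secreted glycoprotein hormone, measured 6.94, 4.90 and 8.22 CPM with eGFP and 12.2, 9.64 and 10.8 with snaR-A. Its log2 fold change was 0.68 with all libraries (adjusted p = 0.0562) and 0.86 without that library (adjusted p = 0.0242). SLC2A3, a glucose transporter, measured 13.4, 8.75 and 14.6 CPM against 28.0, 16.8 and 21.9, with log2 fold changes of 0.83 (adjusted p = 0.0577) and 0.98 (adjusted p = 0.0433). In both, the groups did not overlap and eGFP replicate 3 was the highest of its group. Of SLC2A3's words 27.8% occur in another gene, its paralog SLC2A14 most. MIR762HG, RNASE4 and PCDH10-DT moved alike, from 0.74, 0.62 and 0.59 to 1.05, 0.85 and 0.76 on the log2 scale. Of RNASE4's words 69.5% occur in another gene. TCIM changed direction, since eGFP replicate 3 held 15.1 CPM where the other eGFP libraries held 3.92 and 3.26 and the snaR-A libraries 7.40, 4.98 and 7.13. Its log2 fold change was -0.22 (adjusted p = 0.824) with that library and 0.84 (adjusted p = 0.0332) without it.

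The largest decreases were larger in size than the largest increases. Of the 12 lower genes named by the same rule, PHLDA1, IRS3P, DNAH17, LINC01551, ALDH1L1, FRMPD1, EXTL3-AS1, CNKSR1, FOSL1, ETV5, PDZK1 and ERMAP, 9 kept their call whichever library was left out, the exceptions being PHLDA1, FOSL1 and ETV5. They include a folate enzyme, an axonemal dynein chain, signalling scaffolds and a pseudogene. The rule again required groups that did not overlap.

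IRS3P (chromosome 7, 100570131 to 100571136), a processed pseudogene of an insulin receptor substrate, measured 6.25, 7.99 and 6.34 CPM with eGFP and 0.512, 0.505 and 0.528 with snaR-A. The log2 fold change was -3.76 (SE 0.13, adjusted p = 0.000224), a 13.5-fold difference, and -3.81 without eGFP replicate 3 (adjusted p = 0.000129). The scramble plasmid, which shares the U6 promoter, gave 0.523 to 0.584 CPM and the SF3B2 plasmid 4.11 to 6.06. The snaR-A and scramble ranges overlapped, and both lay below those of eGFP and SF3B2. ALDH1L1 (chromosome 3, 126103562 to 126197994), the enzyme that oxidises formyltetrahydrofolate, measured 24.1, 27.2 and 21.6 CPM with eGFP and 6.41, 5.79 and 6.23 with snaR-A (log2 fold change -2.01, SE 0.09, adjusted p = 0.000534). It stood at 5.01 to 6 CPM with scramble and at 14 to 16.6 with SF3B2. FRMPD1 (chromosome 9, 37650954 to 37746904), a scaffold with FERM and PDZ domains, measured 5.52, 5.48 and 4.91 CPM against 1.45, 1.49 and 1.63 (log2 fold change -1.82, SE 0.09, adjusted p = 0.000657), with 1.38 to 1.51 CPM under scramble and 3.06 to 4.4 under SF3B2. In both genes the scramble range overlapped the snaR-A range. No test was made of snaR-A against scramble.

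ERMAP (chromosome 1, 42817122 to 42844991), a membrane protein of red cell precursors, measured 11.7, 11.8 and 11.3 CPM against 4.86, 4.92 and 4.36 (log2 fold change -1.33, SE 0.07, adjusted p = 0.000941). LINC01551 (chromosome 14, 28765640 to 28823817), a long intergenic noncoding RNA, measured 21, 18.8 and 15.8 CPM against 3.72, 4.07 and 5.07 (log2 fold change -2.13, SE 0.15, adjusted p = 0.00213). Their scramble libraries held 5.16 to 5.75 CPM of ERMAP and 3.49 to 4.17 CPM of LINC01551. DNAH17 (chromosome 17, 78423697 to 78577396), a heavy chain of axonemal dynein, measured 10.2, 13 and 8.02 CPM with eGFP and 1.83, 2.55 and 1.55 with snaR-A (log2 fold change -2.42, SE 0.24, adjusted p = 0.00575), and 0.503 to 0.897 with scramble. PDZK1, a scaffold of membrane transporters, measured 4.08, 5.36 and 4.41 CPM against 1.69, 2.01 and 1.44 (log2 fold change -1.45, adjusted p = 0.00661), and 0.690 to 1.10 with scramble. For DNAH17 and PDZK1 the snaR-A libraries lay between the scramble and the eGFP libraries without touching either. Of PDZK1's words 61.3% occur in another gene.

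CNKSR1, a scaffold of Ras signalling, measured 3.03, 2.99 and 2.47 CPM with eGFP and 0.786, 0.982 and 1.18 with snaR-A (log2 fold change -1.55, SE 0.17, adjusted p = 0.00661). EXTL3-AS1, transcribed opposite the heparan sulfate enzyme gene EXTL3, measured 3.75, 4.25 and 3.96 CPM against 0.846, 1.71 and 1.37 (log2 fold change -1.63, SE 0.24, adjusted p = 0.0119). The library kit kept strand, but how strand entered the counting is not given in the sources used here. Exons of other genes also lie opposite those of ALDH1L1, DNAH17, ERMAP, LINC01551 and PHLDA1, among other named genes, so the same limit holds there. The genes TAF7L and CASS4, a testis form of a TFIID subunit and an adhesion scaffold, were among 6 further decreases named without eGFP replicate 3. They were also called with all libraries (log2 fold changes -1.12 and -1.17, adjusted p = 0.0105 and 0.00575). Of the others, DNAH10OS (-1.22) and RN7SL602P (-1.22) were called with all 6 libraries, but not without snaR-A replicate 2 or 3 for the former or snaR-A replicate 1 for the latter. RN7SL602P is uncertain, since 68.4% of its words occur in another gene. CDK7 (-1.36, adjusted p = 0.0716) and H4C5 (-1.14, adjusted p = 0.236) were not called with all 6 libraries and were called without eGFP replicate 3, at -1.63 (adjusted p = 0.0355) and -1.57 (adjusted p = 0.043). Without that library the log2 fold changes of ALDH1L1, FRMPD1, ERMAP, LINC01551 and DNAH17 were -2.08, -1.88, -1.34, -2.24 and -2.57, and those of PDZK1, CNKSR1 and EXTL3-AS1 were -1.48, -1.64 and -1.63, all called.

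PHLDA1, FOSL1 and ETV5 were highest in eGFP replicate 3. PHLDA1 (chromosome 12, 76025447 to 76031776), a target of growth factor signalling, was at 0 in all 3 snaR-A libraries and measured 2.53, 3.15 and 14.4 CPM with eGFP. Against the floor of 3 counts in the shallowest snaR-A library, 0.0138 CPM, the eGFP mean was at least 485-fold higher, and at least 206-fold higher without replicate 3. The gene was also at 0 in 1 scramble library while the others held 2.91 and 3.28 CPM, and its call was lost without snaR-A replicate 1 (adjusted p = 0.0535). It stood at 282 to 318 CPM in A549 eGFP libraries. FOSL1 and ETV5, transcription factors downstream of the ERK kinases, measured 2.09, 2.96 and 6.42 CPM and 2.83, 2.91 and 6.39 CPM with eGFP, against 1.21, 1.5 and 1.5 and 1.43, 1.46 and 1.56 with snaR-A. Their log2 fold changes went from -1.48 and -1.47 to -0.87 (adjusted p = 0.027) and -0.97 (adjusted p = 0.00691) when eGFP replicate 3 was left out. Both lost their call without any snaR-A library, and FOSL1 also without eGFP replicate 2 (adjusted p up to 0.162 and 0.107).

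**Figure D2:**
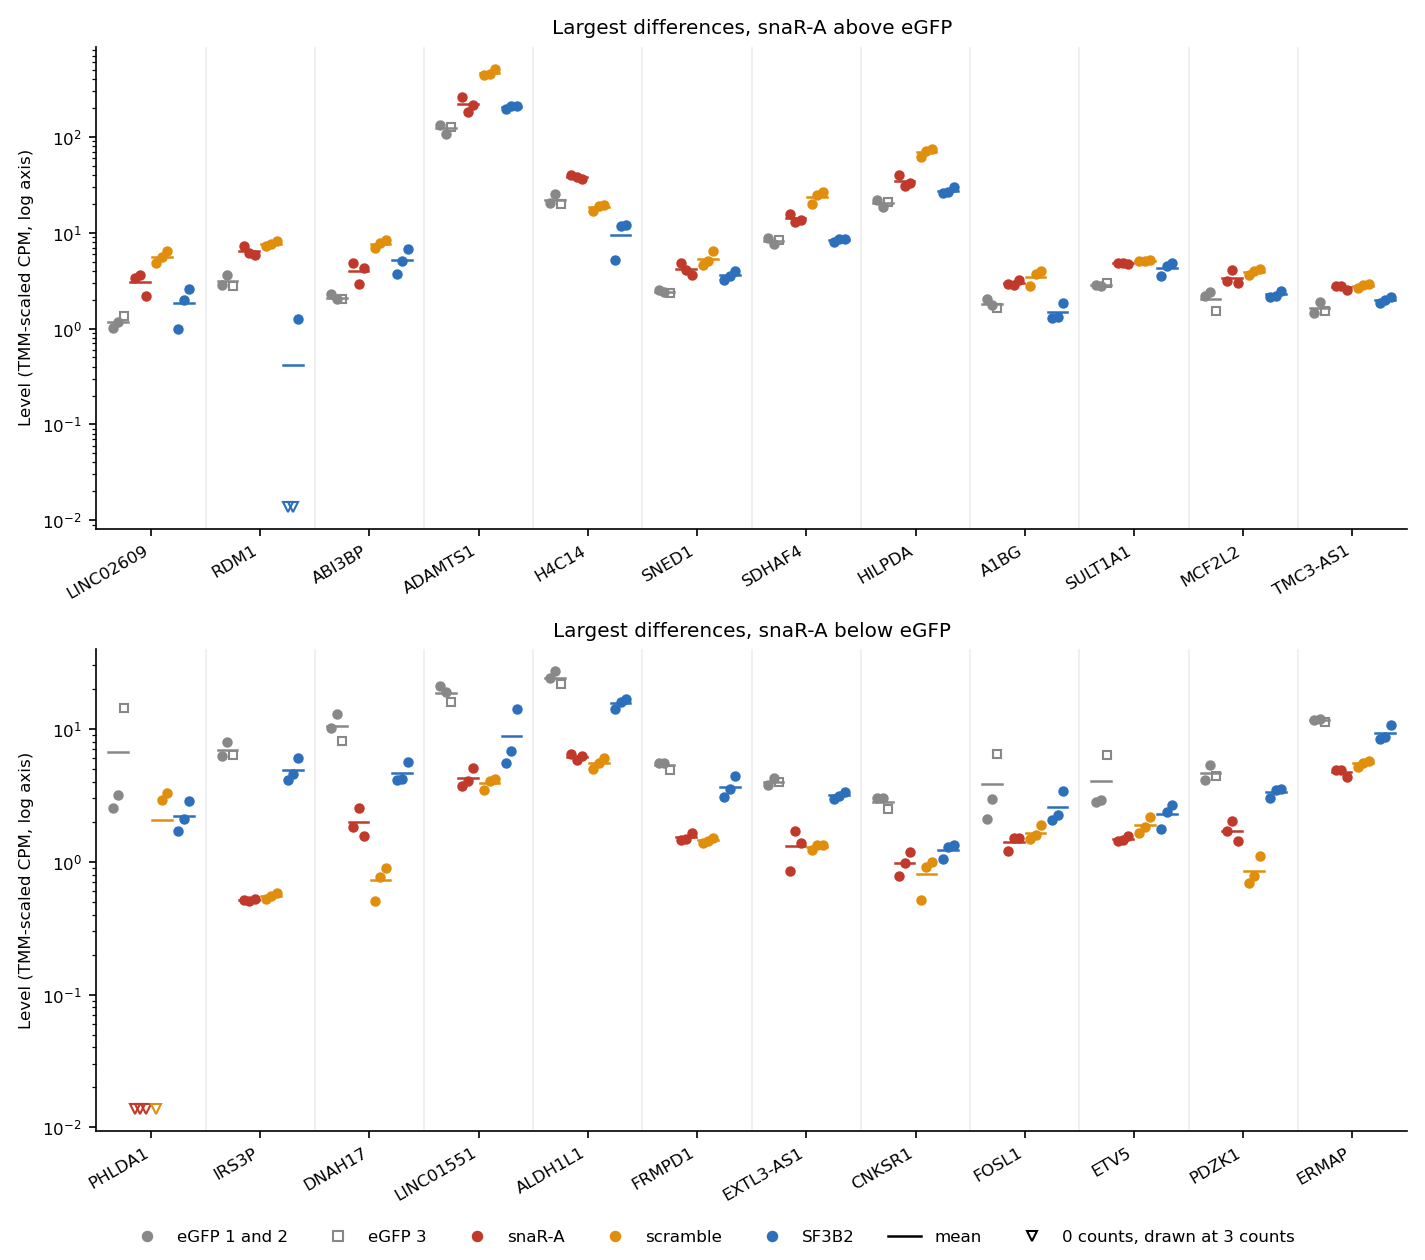
Levels (TMM-scaled CPM, log axis) of the 12 genes with the largest increase and the 12 with the largest decrease, in all 12 HEK293T libraries. Points are libraries, drawn in replicate order for eGFP and snaR-A and from low to high for scramble and SF3B2, bars are means, and triangles are libraries at 0. In the lower panel the scramble points of IRS3P, ALDH1L1, FRMPD1 and ERMAP lie near the snaR-A points, and eGFP replicate 3 (open squares) stands above its group for PHLDA1, FOSL1 and ETV5.

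By share of tested members, the list most often called in the upward direction was that of the hypoxia response and glycolysis. When oxygen is low, the HIF transcription factors raise glucose transporters, glycolytic enzymes and their own brakes. Of 33 tested members, 15 rose with snaR-A and none fell, with a median log2 fold change of 0.215. Over all genes 6.71% were called higher and the median was -0.00368. The groups did not overlap in 25 of the 33, and in 39.8% of all genes. Without eGFP replicate 3, 16 of 34 rose and the median was 0.218. The count was 9 and 10 without eGFP replicate 1 or 2, and 4, 7 and 3 without snaR-A replicate 1, 2 or 3. The members that rose were ALDOA, ALDOC, ANKRD37, BNIP3, BNIP3L, EGLN3, INSIG2, LOX, NDRG1, P4HA2, PDK1, PFKL, PGK1, SLC2A1 and TPI1.

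PDK1, the kinase that keeps pyruvate from the mitochondria, measured 65.8, 59.8 and 60.7 CPM with eGFP and 94.1, 85.8 and 84.1 with snaR-A (log2 fold change 0.48, SE 0.06, adjusted p = 0.00798). EGLN3, a prolyl hydroxylase that marks HIF for destruction, measured 15.3, 14 and 14.4 CPM against 20.7, 19.5 and 20.2 (0.44, adjusted p = 0.00916). P4HA2, which hydroxylates collagen, measured 27.3, 27.4 and 28.5 CPM against 39.9, 36.1 and 35.8 (0.40, adjusted p = 0.00955). These 3 calls held in every omission of a library. ALDOC, a glycolytic aldolase, measured 7.29, 6.20 and 6.81 CPM against 11.8, 9.67 and 10.9 (0.65, adjusted p = 0.0138), and lost its call without snaR-A replicate 1 or 3 (adjusted p up to 0.0573). The scramble libraries held 16.1 to 22.4 CPM of ALDOC, 104 to 120 of PDK1 and 27.4 to 30.1 of EGLN3. With the SF3B2 plasmid they held 7.92 to 10.7, 72.0 to 80.1 and 14 to 16.6 CPM.

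The promoters of this list can be read beside these values, since HIF binds the letters ACGTG. In the RefSeq windows from 250 bases before to 50 after a start site (GRCh38.p14), ACGTG on either strand occurred in 7518 of 35116 windows (21.4%). Among the members that rose, 9 of the 13 genes with a window held the letters, in 14 of 20 windows (70%). Among the other tested members 9 of 16 genes held them, in 10 of 30 windows (33.3%). Windows of a gene can overlap and count a match more than once, as for ALDOA, INSIG2 and LOX, and EGLN3, P4HA2, PFKL and SLC2A1 had no match. The windows of ALDOC, at chr17:28576846-28577145 on the minus strand with 3 matches, and PDK1, at chr2:172555840-172556139 on the plus strand with 2, are shown with ACGTG or its reverse complement CACGT in capitals. A palindromic CACGTG counts on both strands.
ALDOC: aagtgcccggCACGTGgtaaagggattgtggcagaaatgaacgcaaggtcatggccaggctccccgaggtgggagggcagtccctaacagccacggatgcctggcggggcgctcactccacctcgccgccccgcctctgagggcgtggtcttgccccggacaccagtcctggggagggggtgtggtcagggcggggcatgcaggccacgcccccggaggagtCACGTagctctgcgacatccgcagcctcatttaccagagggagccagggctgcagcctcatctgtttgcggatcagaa
PDK1: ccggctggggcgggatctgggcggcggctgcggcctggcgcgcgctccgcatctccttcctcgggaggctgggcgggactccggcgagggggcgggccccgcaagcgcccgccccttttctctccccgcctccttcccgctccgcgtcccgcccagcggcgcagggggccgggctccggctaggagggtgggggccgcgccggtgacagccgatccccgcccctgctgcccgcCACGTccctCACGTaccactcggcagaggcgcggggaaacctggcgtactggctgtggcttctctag
These matches describe the letters in the window, and binding was not measured.

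Ribosomal protein mRNAs moved together by a small amount. Of 73 cytosolic ribosomal protein genes, 72 had a positive log2 fold change, the median was 0.142, and 17 rose and none fell, where 6.71% of all genes were called higher. The count was 4 without eGFP replicate 3 (median 0.146), 3 and 6 without eGFP replicate 1 or 2, and 0 without any snaR-A library. Nuclear genes of the respiratory chain behaved likewise, with 8 of 33 higher, 1 lower (NDUFS3) and a median of 0.112, or 6, 1 and 0.107 without eGFP replicate 3. None of them was called higher without any snaR-A library, and 1 without eGFP replicate 1. COX6A1, of cytochrome oxidase, measured 141, 154 and 138 CPM against 198, 173 and 175 (0.31, SE 0.06, adjusted p = 0.0251), and lost its call without eGFP replicate 1 or any snaR-A library (adjusted p up to 0.0761). The 13 genes that mitochondria themselves encode had a median of -0.363, none called, and -0.195 without eGFP replicate 3, while 1 was called lower without snaR-A replicate 3. MT-ND1, of complex I, measured 1720, 1760 and 2740 CPM with eGFP and 916, 1290 and 1600 with snaR-A (log2 fold change -0.73, adjusted p = 0.0884). The groups did not overlap in 3 of these 13 genes.

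Transcript length and base composition moved with the direction of change. Among 12065 protein-coding genes with a mean of at least 1 on the log2 CPM scale, split into 10 equal groups by transcript length, 15.5% of the shortest group (207 to 1779 bases) were called higher and 2.82% lower. In the longest group (8345 to 44880 bases) the shares were 5.05% and 12.5%, and the median log2 fold change went from 0.0753 to -0.0226. Without eGFP replicate 3 these medians were 0.0732 and -0.0126. By GC content, 14.6% of the richest group (61.0% to 74.2%) were higher and 4.23% lower, against 6.71% and 7.62% of the poorest, with median log2 fold changes of 0.0718 and 0.0146. Those medians were 0.0421 and 0.0527 without eGFP replicate 3, so the order of the richest and poorest groups turned on that library. The groups between them then had medians of 0.0156 to 0.0392. The shares called by length or GC were not recomputed without that library. Ribosomal protein genes had a median transcript length of 2008 bases and respiratory chain genes 1595, where all 12065 had 4095, while hypoxia genes had 3470. The part that length or composition plays in the list medians was not tested. By annotation, 87 of 4528 long noncoding RNAs were higher (1.92%) and 302 lower (6.67%), beside 6.71% and 8.25% of all genes. Of 713 processed pseudogenes 7 were higher (0.982%) and 77 lower (10.8%). Of 15718 protein-coding genes 1379 were higher (8.77%) and 1387 lower (8.82%).

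**Figure D3:**
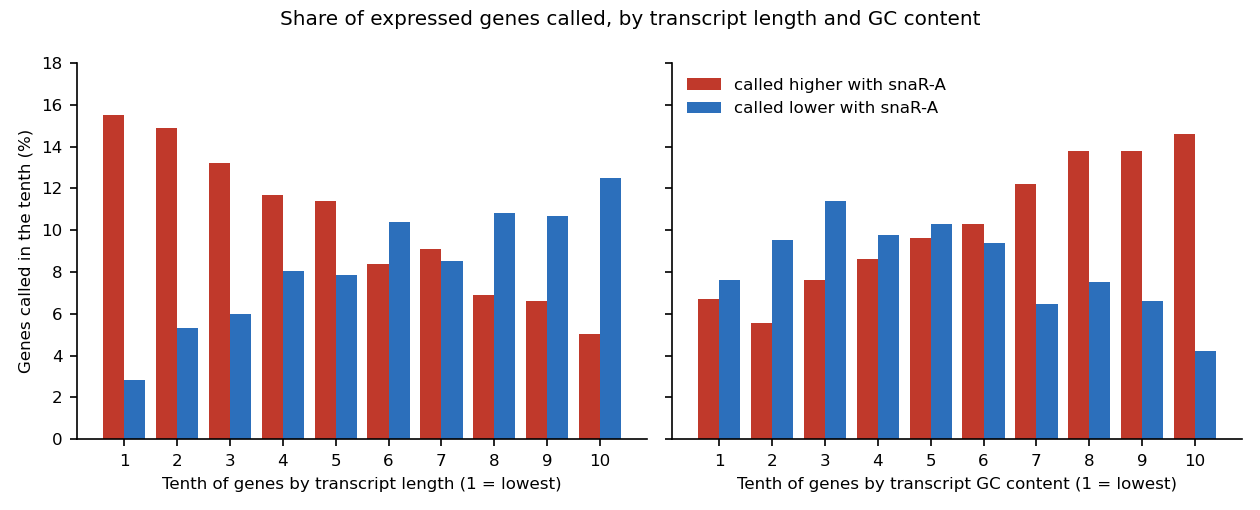
Bars give the share of genes called higher (red) or lower (blue) with snaR-A in 10 equal groups of the 12065 protein-coding genes with a mean of at least 1 on the log2 CPM scale, by transcript length (left) and GC content (right). Calls in the higher direction fall from 15.5% to 5.05% with length, and calls in the lower direction rise from 2.82% to 12.5%.

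Splicing regulators were called in the downward direction alone. SR proteins and hnRNPs select splice sites, and their own transcripts are often spliced in step with their protein. Of 30 such genes, 12 fell and none rose, with a median log2 fold change of -0.148, or 9 and -0.132 without eGFP replicate 3. Of all genes 8.25% were called lower. They were CLK1, CLK4, HNRNPM, HNRNPU, PTBP2, SON, SRRM2, SRSF1, SRSF10, SRSF6, TRA2A and TRA2B. The count was 5 without eGFP replicate 2, 1 without snaR-A replicate 3 and 0 without eGFP replicate 1 or snaR-A replicate 1 or 2. SON, a scaffold of nuclear speckles, measured 538, 496 and 557 CPM with eGFP and 439, 438 and 446 with snaR-A (log2 fold change -0.29, SE 0.05, adjusted p = 0.0201). CLK1, a kinase of SR proteins, measured 76.0, 77.6 and 73.0 CPM against 60.6, 62.5 and 67.0 (-0.28, SE 0.05, adjusted p = 0.0147). SON lost its call without eGFP replicate 1 or any snaR-A library and CLK1 without eGFP replicate 1 or snaR-A replicate 1 or 2, at adjusted p values of up to 0.0817 and 0.0585.

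SF3B2, the subunit the study overexpressed elsewhere, measured 352, 390 and 343 CPM with eGFP and 363, 364 and 360 with snaR-A (log2 fold change -0.02, SE 0.05, adjusted p = 0.821). With the SF3B2 plasmid it stood at 28100 to 44000 CPM, which checks those labels. In A549, 1 scramble library held 8770 CPM of SF3B2 and the others 340 and 372. The cause was not tested, and that scramble group enters the choice of genes higher in A549 described below. Among 14 U2 snRNP genes, SF3B4 (-0.24, adjusted p = 0.0356) and U2AF2 (-0.20, adjusted p = 0.0352) fell, none rose and the median was -0.0466, or 2, none and -0.0746 without eGFP replicate 3. This count, and that of 2 among 16 snaR-A binding proteins, is to be read beside the 8.25% of all genes called lower. SF3B4 measured 91.7, 103 and 92.0 CPM against 78.5, 86.9 and 81.6, and SF3A3 202, 205 and 212 against 189, 196 and 189 (-0.13, adjusted p = 0.0602). SF3B4 lost its call without eGFP replicate 1 or 2 or any snaR-A library (adjusted p up to 0.123), and U2AF2 in each of the 6 omissions (adjusted p up to 0.12). Both also lost it when libraries were scaled by size alone. Of 16 genes for proteins known to bind snaR-A, 2 fell and none rose, with a median of -0.0274, or 2 and -0.0136 without eGFP replicate 3. Neither of the 2 was called without any snaR-A library. DHX36, a helicase of G-quadruplexes, measured 179, 180 and 180 CPM with eGFP and 160, 160 and 159 with snaR-A (-0.20, SE 0.03, adjusted p = 0.0138), and an adjusted p of up to 0.0591 over the omissions. SSB, the La protein that holds the ends of RNA polymerase III transcripts, measured 410, 426 and 431 CPM against 408, 422 and 445 (-0.01, adjusted p = 0.86).

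The study describes transcripts as sensitive to snaR-A by their intron retention after siRNA depletion. Gene counts under the plasmids measure total level and not intron retention. Of 13 such transcripts, DMKN rose (54.5, 56.9 and 53.4 CPM against 60.0, 61.1 and 61.2, log2 fold change 0.12, adjusted p = 0.0467), none fell and the median was 0.105. This count of 1, and that in the NME family below, is to be read beside the 6.71% of all genes called higher. The DMKN call was absent without eGFP replicate 3 (0.10, adjusted p = 0.12), without eGFP replicate 1 and without any snaR-A library. In the NME family of nucleoside diphosphate kinases, NME1 measured 171, 167 and 172 CPM against 174, 182 and 184 (0.06, SE 0.04, adjusted p = 0.301). NME3, the 1 call among 6 tested members, rose (8.96, 8.08 and 7.64 CPM against 10.4, 10.3 and 10.5, log2 fold change 0.31, adjusted p = 0.0356). It did not without eGFP replicate 3 (0.27, adjusted p = 0.0564), eGFP replicate 2 or any snaR-A library. Factors of nonsense-mediated decay, which removes mRNAs with early stop codons, fell in 5 of 19 (SMG6, SMG8, UPF2, UPF3A and UPF3B), with none higher and a median of -0.116, beside 8.25% of all genes. SMG8 measured 54.0, 56.7 and 53.2 CPM against 45.3, 47.2 and 46.2 (-0.26, SE 0.03, adjusted p = 0.00959), a call kept in every omission, and 6 factors fell without eGFP replicate 3. The count was 1 without snaR-A replicate 1, 2 without replicate 2 or 3 and 3 without eGFP replicate 1.

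Stress and growth response genes fell more often than they rose in 3 lists and split in that of ATF4. p53 targets fell in 7 of 24 (CDKN1A, FAS, MDM2, PLK3, SPATA18, TIGAR and ZMAT3), none rose and the median was -0.15, or 7 and -0.172 without eGFP replicate 3. Here and in the lists of this kind that follow, the share of all genes is 6.71% higher and 8.25% lower. HEK293T cells carry viral proteins that bind p53. MDM2 (chromosome 12, 68808177 to 68845544), the ligase that destroys p53, measured 240, 255 and 248 CPM with eGFP and 188, 193 and 192 with snaR-A (log2 fold change -0.40, SE 0.04, adjusted p = 0.00551) and kept its call in every omission. With scramble MDM2 stood at 141 to 154 CPM, below every snaR-A library. PLK3, a stress kinase, measured 7.59, 9.24 and 6.55 CPM against 4.78, 5.28 and 4.47 (-0.71, SE 0.13, adjusted p = 0.02), and lost its call without eGFP replicate 1 or any snaR-A library (adjusted p up to 0.0797). The list count was 2 and 5 without eGFP replicate 1 or 2 and 1, 1 and 2 without snaR-A replicate 1, 2 or 3.

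Immediate early genes, switched on within minutes of a growth signal, fell in 8 of 25 and rose in 1, MYC, with a median of -0.213 (7, 1 and -0.179 without eGFP replicate 3). Those that fell were CCN1, EGR1, EGR3, FOSB, FOSL1, IER2, NR4A2 and NR4A3. FOSB measured 4.23, 4.17 and 4.83 CPM against 2.53, 2.41 and 2.62 (-0.83, SE 0.10, adjusted p = 0.00798), kept in every omission. MYC, which drives growth and metabolism, measured 76.8, 72.6 and 82.2 CPM against 108, 96.0 and 102 (0.38, SE 0.07, adjusted p = 0.0167), and 0.43 without eGFP replicate 3 (adjusted p = 0.0126). Its scramble libraries held 151 to 164 CPM, above every snaR-A library. The MYC call was lost without snaR-A replicate 1 or 3 (adjusted p up to 0.0658), and the count of genes that fell was 1 without any snaR-A library and 4 without eGFP replicate 1 or 2.

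Heat shock proteins, the chaperones of misfolded protein, fell in 6 of 17 (BAG3, DNAJA1, DNAJB1, HSPA6, HSPA8 and HSPH1) and none rose, with a median of -0.208, or 6 and -0.132 without eGFP replicate 3. HSPA6, the strictly inducible member, measured 0.924, 1.10 and 0.937 CPM against 0.254, 0.376 and 0.299 (-1.69, SE 0.18, adjusted p = 0.00613), kept in every omission, though 57.1% of its words occur in the pseudogene HSPA7 or elsewhere. HSPH1 measured 318, 322 and 332 CPM against 250, 279 and 273 (-0.30, SE 0.05, adjusted p = 0.0167) and was not called without any snaR-A library (adjusted p up to 0.0577). The list count was 4 without eGFP replicate 1 and 1, 3 and 1 without snaR-A replicate 1, 2 or 3. Genes of the ATF4 stress response split, with 4 of 31 higher and 3 lower, or 3 and 5 without eGFP replicate 3. The counts were 2 and 3 without eGFP replicate 1, 2 and 2 without snaR-A replicate 2, and 1 and 1 without snaR-A replicate 1 or 3. PPP1R15A, which restores translation after stress, fell from 71.9, 90.2 and 79.3 CPM to 53.6, 53.8 and 51.3 (-0.63, SE 0.08, adjusted p = 0.00875). DDIT4, an inhibitor of mTOR that hypoxia also induces, rose from 105, 94.5 and 95.5 CPM to 159, 131 and 139 (0.52, SE 0.08, adjusted p = 0.0133). Both held in every omission. Scramble libraries held 204 to 249 CPM of DDIT4, above every snaR-A library, and 45.2 to 53.3 of PPP1R15A, overlapping snaR-A. This list's median was -0.00865, and it was 0.0132 without eGFP replicate 3 and 0.0133 under scaling by library size alone. Of 20 genes of the unfolded protein response of the endoplasmic reticulum, PDIA4 rose (0.17, adjusted p = 0.0301), but not without eGFP replicate 1 or 3 or any snaR-A library.

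Duplicated NPIP and SMG1P genes had the highest share of decreases among the lists. NPIP genes and SMG1 pseudogenes are recent copies that spread together in primate segmental duplications. Of 26 rows tested, 13 fell and none rose, with a median log2 fold change of -0.496, or 13 and -0.618 without eGFP replicate 3. SMG1P5 measured 8.05, 7.54 and 7.49 CPM with eGFP and 4.85, 4.90 and 4.66 with snaR-A (log2 fold change -0.70, SE 0.07, adjusted p = 0.00575). NPIPB3 measured 37.8, 37.0 and 33.0 CPM against 23.1, 25.2 and 25.3 (-0.57, SE 0.06, adjusted p = 0.00613). SMG1P6 and SMG1P7 changed by -0.92 and -0.96. All 4 calls held in every omission, NPIPB3 was not called in the fit over all 12 HEK293T libraries (adjusted p = 0.0817), and the list count was 5, 8 and 8 without snaR-A replicate 1, 2 or 3 and 10 and 12 without eGFP replicate 1 or 2. The rows are not independent, since 99.4% of the words of SMG1P5 and 79.6% of those of SMG1P7 occur in another gene, so reads can pass between members and the list may hold fewer changes than rows.

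Calls and medians of innate immune genes depended on eGFP replicate 3. Interferon response genes had 2 of 42 higher (EPSTI1 and IFITM1) and 2 lower (ISG15 and ISG20) with a median of -0.219, and without that library 6 higher, 2 lower and a median of 0.0782. The median thus turned sign on this library. EPSTI1 lost its call in each of the 6 omissions. IFITM1, a membrane protein that blocks virus entry, measured 7.69, 7.95 and 8.10 CPM with eGFP and 11.4, 11 and 10.4 with snaR-A (0.44, SE 0.07, adjusted p = 0.0134). ISG15, a ubiquitin-like protein, measured 2.48, 2.65 and 2.47 CPM against 1.48, 1.66 and 1.84 (-0.63, SE 0.11, adjusted p = 0.0167). Each lost its call without snaR-A replicate 1 or 2 and ISG15 without eGFP replicate 1 (adjusted p up to 0.0588 and 0.0622). Of IFITM1's words 37.8% occur in another gene. Inflammatory NF-kB targets had 1 of 14 higher and 4 lower (CCL5, ICAM1, NFKB1 and RELB), and their median went from -1.08 to 0.13 without eGFP replicate 3. The chemokine CCL5 measured 0.981, 1.01 and 1.08 CPM against 0.398, 0.317 and 0.4 (-1.48, SE 0.14, adjusted p = 0.00575). ICAM1, an adhesion receptor, measured 0.801, 1.11 and 0.996 CPM against 0.326, 0.289 and 0.361 (-1.60, SE 0.17, adjusted p = 0.00657). Both held in every omission and without eGFP replicate 3 stood at -1.44 and -1.57.

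The A549 RNA of eGFP replicate 3 was visible gene by gene. Of the genes tested, 798 were more than 10 times higher in A549 than in HEK293T under scramble. Their median log2 fold change was -0.766 with eGFP replicate 3 and -0.0694 without it. With it, 81 were called lower, 65 of them past the log2 limit, and none higher, and without it 74 were lower and 33 higher. KRT7, a keratin of the A549 markers, measured 0.0263 and 0.0544 CPM in eGFP replicates 1 and 2, 42.4 in replicate 3 and 0.0152, 0.0235 and 0.0484 with snaR-A (log2 fold change -8.98, adjusted p = 0.0838, and -0.51, adjusted p = 0.65, without replicate 3).

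**Figure D4:**
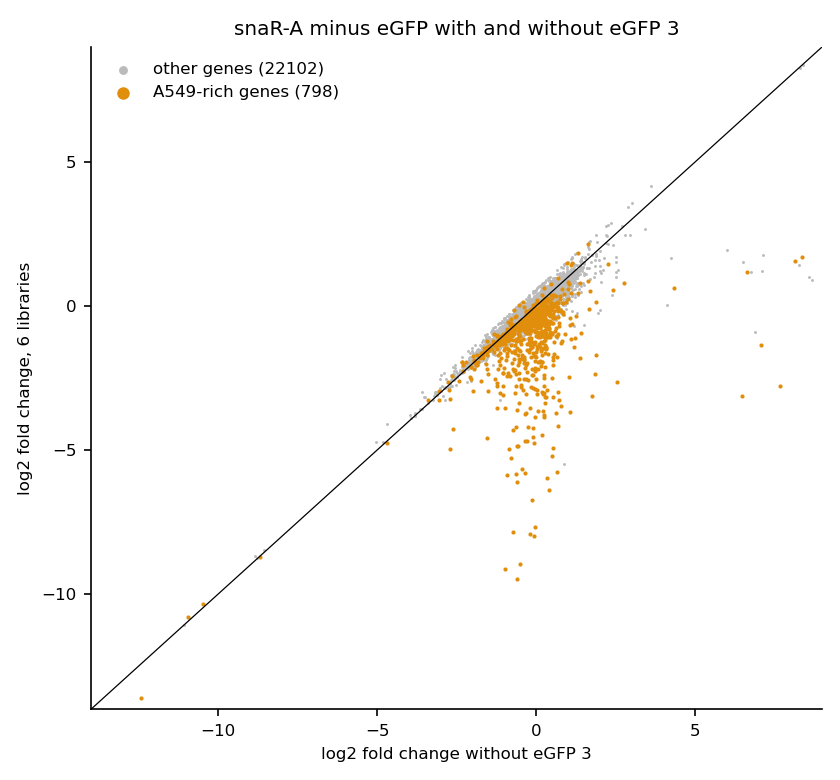
Each point is a gene, with its log2 fold change without eGFP replicate 3 on the horizontal axis and with all 6 libraries on the vertical axis, and the line marks equal values. The 798 genes more than 10 times higher in A549 than in HEK293T (orange) have a median of -0.0694 on the horizontal and -0.766 on the vertical axis, and the other genes are grey.

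The counts of the remaining lists are to be read beside the 6.71% of all genes called higher and the 8.25% called lower. Sterol and fatty acid synthesis had 4 of 31 higher and none lower (median 0.0983, or 5 and 0.103 without eGFP replicate 3). INSIG1, the sensor that holds sterol synthesis in check, measured 237, 196 and 227 CPM against 393, 335 and 338 (0.67, SE 0.09, adjusted p = 0.0104) and kept its call in every omission. With scramble INSIG1 stood at 538 to 604 CPM, above every snaR-A library. DHCR7, IDI1 and MSMO1, enzymes of the pathway, rose by 0.19, 0.35 and 0.30, and each lost its call without eGFP replicate 1 or any snaR-A library, IDI1 and MSMO1 also without eGFP replicate 2. Genes of epithelial-mesenchymal transition had 3 of 24 higher and 2 lower, and 7 and 2 without eGFP replicate 3. SPARC, a matrix protein, measured 63.4, 65.5 and 63.8 CPM against 90.1, 83.6 and 81.8 (0.38, SE 0.04, adjusted p = 0.00729), kept in every omission. The RNA polymerase III machinery had 3 of 27 higher (POLR3G, POLR3GL and POLR3K, by 0.17, 0.21 and 0.16) and 2 lower (POLR3F, by -0.19, and SNAPC4), with a median of -0.0157 that was 0.00482 under library size scaling, or 2, 4 and -0.0612 without eGFP replicate 3. All 5 calls were absent without any snaR-A library or without eGFP replicate 1. Proliferation genes had 1 of 36 higher (AURKB) and 3 lower (CDC6, CENPF and MKI67), near the shares over all genes, and 1 and 3 without eGFP replicate 3. Without eGFP replicate 1 or snaR-A replicate 2 or 3 the list had no call, and without snaR-A replicate 1 only MKI67 of these 4 was called. The list's median was -0.00719, and 0.0135 under library size scaling. Of 19 nuclear and snoRNA host RNAs SNHG17 and TUG1 fell, of 28 proteasome genes PSMD1 and PSMD12 fell, of 12 polyamine genes AZIN2 rose, and of 13 gluconeogenic or FOXO target genes ARRDC4 and CITED2 rose. Each of these 7 calls was lost without snaR-A replicate 1, and the log2 fold changes lay between -0.35 (SNHG17) and 0.41 (AZIN2). Replication-dependent histone genes had H4C14 alone called of 37, with a median of -0.117, or -0.33 over 39 genes without eGFP replicate 3. HEK293T markers had NEFL and NEFM higher and INA and ZIC5 lower of 11, by 0.28, 0.47, -0.30 and -0.19. NEFM lost its call without eGFP replicate 1 or snaR-A replicate 3. The count of markers called lower was 1 without eGFP replicate 1 or 2 and 0 without any snaR-A library. INA was higher in A549 than in HEK293T. A549 markers had none of 11 called with all libraries and 2 higher without eGFP replicate 3, with medians of -7.68 and -0.0306.

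**Figure D5:**
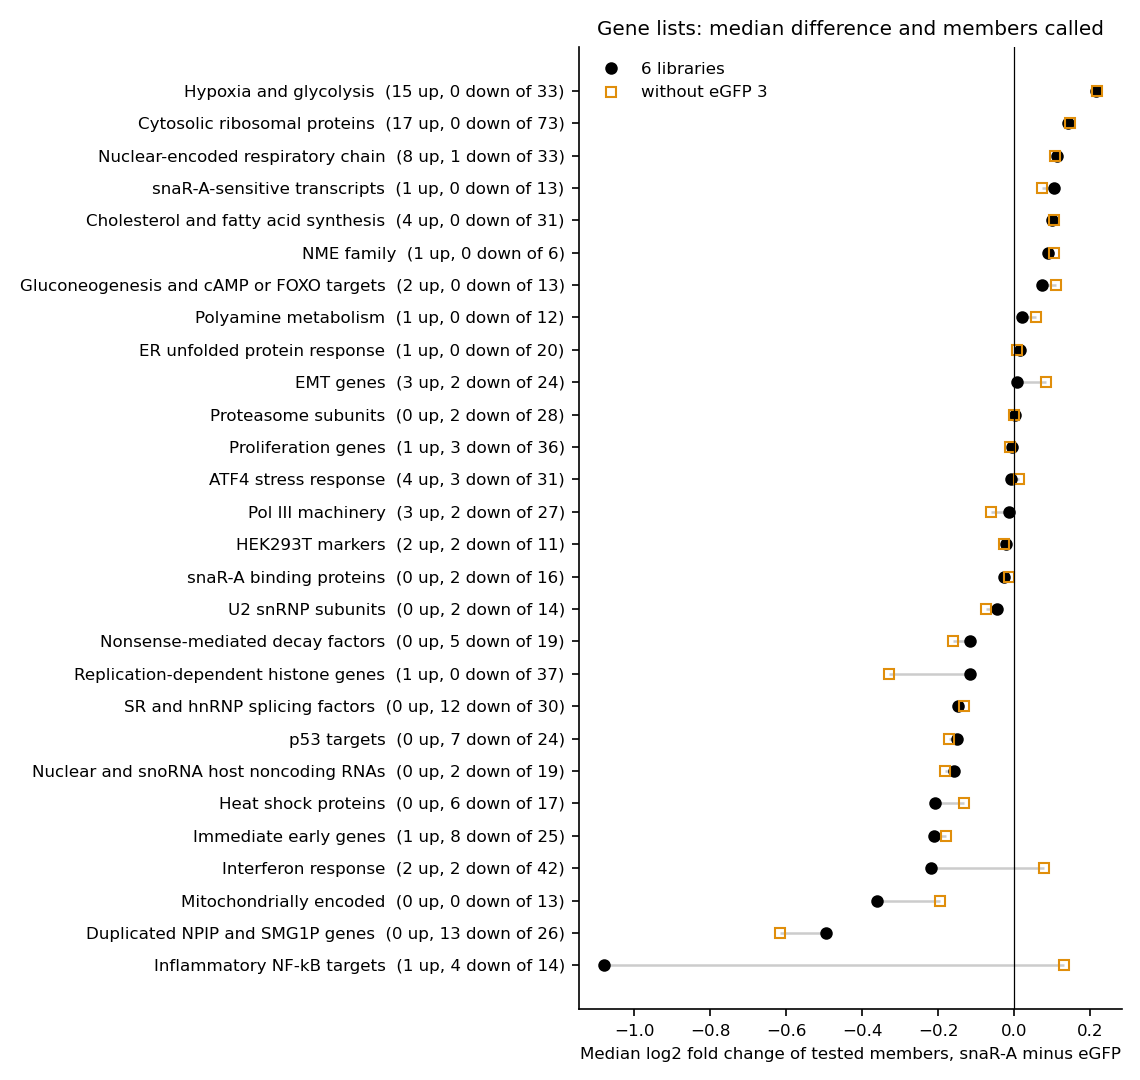
Median log2 fold change, snaR-A minus eGFP, of the tested members of each gene list, over the 6 libraries (black) and without eGFP replicate 3 (open orange), with the members called up and down over the 6 libraries in the row labels. Hypoxia and ribosomal protein genes lie at the top with both fits, while the interferon and NF-kB medians move across 0.

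The same plasmids were also compared in A549, and the difference of the differences was tested over 12 libraries. A549 snaR-A replicate 3 is A549 by its title and HEK293T by its cell line entry. Its share of A549 RNA, 95.2%, was that of A549. The difference between snaR-A and eGFP differed between the lines in 1616 of 25054 genes (6.45%) at an adjusted p under 0.05, 817 with the HEK293T value above the A549 value and 799 below. Without A549 snaR-A replicate 3 the count was 1062 and without HEK293T eGFP replicate 3 it was 2111. Omitting HEK293T snaR-A replicate 1, 2 or 3 gave 784, 1057 and 1054, omitting A549 snaR-A replicate 1 or 2 gave 975 and 888, and omitting eGFP replicate 1 gave 970 in HEK293T and 1058 in A549. Omitting A549 eGFP replicate 2 gave 949. Of the 3426 genes called in HEK293T, 1110 differed between the lines. Of the 22900 genes tested in HEK293T, 38 were called higher and 359 lower in the fit of the A549 libraries alone. Not all of these genes were tested in A549, and A549 calls outside them were not counted.

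The list counts that follow were not recomputed without HEK293T eGFP replicate 3. The hypoxia list differed in 12 of 33 genes, beside 6.45% of all genes, and in A549 none of the 33 was called and the median was -0.0357. P4HA2 differed by 0.48 (adjusted p = 0.0041) and PDK1 by 0.42 (adjusted p = 0.013). The interferon list differed in 28 of 42 genes, all 42 of which fell in A549, with a median of -2.19. IFITM1, which rose in HEK293T, changed by -2.94 in A549. p53 targets differed in 7 of 24, with 2 higher and none lower in A549, and the NPIP and SMG1P list in 9 of 26 rows, with none called in A549. The ribosomal protein list differed in 0 of 73 genes at the adjusted threshold, with a median of 0.142 in HEK293T and -0.00191 in A549. Among the largest decreases, IRS3P, ALDH1L1, FRMPD1, ERMAP and DNAH17 had A549 log2 fold changes of -0.34, -0.19, -0.21, 0.03 and 0.33, none called, and the test of the difference passed for each. IRS3P and FRMPD1 were scarce in A549 eGFP libraries, at 0.346 to 0.416 and 0.715 to 1.19 CPM, while ERMAP stood at 7.25 to 7.34. HSPA6 and CCL5 changed by -1.71 and -1.35 in A549, beside HEK293T values of -1.69 and -1.48, with differences of 0.03 (adjusted p = 0.96) and -0.11 (adjusted p = 0.83).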

How the data were processed

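RNA was rRNA-depleted and poly(A)-selected, made into stranded libraries and sequenced by the authors. Their processing notes name Trim Galore, Salmon and hg38. The transcriptome release, the summing of transcripts to genes and the strand setting are not given in the sources used here. The deposited table holds estimated counts from Salmon for 60236 Ensembl genes in 24 libraries, and 100% of the positive values in the 6 libraries were not whole (tolerance 1e-06). Counts were rounded for testing, and log2 fold changes are snaR-A minus eGFP.

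edgeR 4.0.16 in R 4.3.3 was used with its filter on low counts, TMM factors, the quasi-likelihood test, with p adjusted by Benjamini-Hochberg over all genes tested, and a gene was called at an adjusted p under 0.05. The further limit was a log2 fold change beyond 1. The difference between the lines was an interaction term over 12 libraries. Genes without a symbol held 3.01% of the counts and were tested but not named. Named genes were the 12 largest changes in each direction among called genes that had a symbol, whose mean reached 1 on the log2 CPM scale and whose groups did not overlap, up to 6 more in each direction without eGFP replicate 3, a fixed set (among them SF3B2, SF3A1, SF3A3, SF3B4, SSB and NME1), and up to 4 members with the smallest p in each list. Genes named in a list's count of calls are all of that list's calls. The libraries, lists and rules were chosen with earlier results of these data known. Some genes that these rules name are not reported here. SF3A1 of that set changed by -0.08 on the log2 scale (adjusted p = 0.202).

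On simulated data the test recovered 200 of 200 changed genes with 9 false calls among 23092 genes, and the interaction 197 of 200 with 16 among 24323. The median size of the log2 fold change there was 1.009 for the test and 1.003 for the interaction. Genes called in the 6 libraries had median sizes of 0.305 (higher) and 0.471 (lower), and recovery at such sizes was not tested. In the simulation the changed genes were drawn above a minimum level, and all genes had the same relative spread between replicates. No simulated library carried A549 RNA of its own. Recovery among scarce genes, and false calls under the spread of these data, were therefore not tested. Same-numbered snaR-A and eGFP libraries did not deviate together (correlations of -0.0147, 0.0398 and -0.0384), so no pairing was used. The variance between replicates was 23.5 to 101 times that of counting noise. This cannot tell separate cultures from repeat libraries of 1 culture. The study calls its replicates biological, handled on 1 day, and its experiments independently repeated, without saying whether separate cultures were transfected, so p-values measure the spread between these libraries. A count of 0 bounds counting error only. Sequences are from RefSeq on GRCh38.p14, positions from GENCODE 44 (1417 tested genes had no record), and shared sequence was measured as 31-base words of annotated transcripts. Python 3.11.15 with pandas 2.3.3 and matplotlib 3.10.9 made the tables and figures. Alternatives were other tests, scalings and filters, a fit over all HEK293T libraries, a replicate block, A549-rich genes left out and each library left out.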

Additional observations from a re-analysis of the deposited data

Results flagged for a closer look

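The difference between snaR-A and eGFP was tested for a difference between HEK293T and A549, and 1616 genes passed at an adjusted p under 0.05 in edgeR's quasi-likelihood test. The count was 1062 without A549 snaR-A replicate 3, whose label fields disagree. Values here are the HEK293T log2 fold change minus that in A549.

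Among genes named for the size of their change in HEK293T, not as members of a list, those that passed with a lower value in HEK293T were IRS3P (-3.4), DNAH17 (-2.73), EXTL3-AS1 (-1.94), ALDH1L1 (-1.79), PDZK1 (-1.63), FRMPD1 (-1.6), ETV5 (-1.49), TAF7L (-1.49), CASS4 (-1.48), CNKSR1 (-1.39), ERMAP (-1.34) and DNAH10OS (-1.14). For ETV5 the eGFP group was highest in replicate 3, which carried A549 RNA. Some of these genes were scarce in A549. Its eGFP libraries held 0.346 to 0.416 CPM of IRS3P and 0.265 to 0.326 of TAF7L. They held 0.337 to 0.482 CPM of CASS4 and 0.251 to 0.550 of CNKSR1, but 7.25 to 7.34 of ERMAP and 5.81 to 6.06 of DNAH10OS. PHLDA1 had a fitted value of -13.3, which depends on the prior count because all 3 HEK293T snaR-A libraries were at 0.

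Those of the same kind that passed with a higher value in HEK293T were A1BG (0.96), STC1 (0.857), ADAMTS1 (0.797), HILPDA (0.632) and SDHAF4 (0.59). STC1 was not called within HEK293T over all 6 libraries. The cause of these differences was not tested.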

How the results depend on the processing

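Counts over 6 libraries depended on the test and on single libraries. With the replicate number as a block, 30 genes were higher past the log2 limit, and 717 were higher and 1109 lower at an adjusted p under 0.05. The block changed neither the count past the limit in the lower direction (333) nor that of the line difference (1249) by over 1.5 times. The numbers did not pair the libraries, and 1 of 3 snaR-A libraries correlated best with its own number. DESeq2 called 2620 genes higher, and the fit of all HEK293T libraries 1098 lower. The line difference was 3589 genes with DESeq2 and 993 with no low-count filter. Leaving out 1 library gave 9 to 58 higher and 151 to 506 lower past the limit, 133 to 1323 higher and 345 to 1801 lower by adjusted p, and 784 to 2129 genes for the line difference.

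Of 110 called named genes, 32 kept their call under every alternative and 65 under every one that kept all libraries, and none changed sign. The fit over all HEK293T libraries lost 40 of the 110 calls, the block 24 and library size scaling 11. Genes not called changed sign: SF3B2 gave 0.000585 under library size scaling, 0.00315 with all HEK293T libraries and, with 1 library left out, -0.0548 (eGFP replicate 3) to 0.0383 (eGFP replicate 2). SSB gave 0.0065 and 0.00832 under the same settings, 0.00274 without eGFP replicate 3 and, over the omissions, -0.0485 (snaR-A replicate 3) to 0.0151 (snaR-A replicate 1). TCIM gave 0.138 with the block and, over the omissions, -0.566 (eGFP replicate 2) to 0.837 (eGFP replicate 3). Apart from that library's A549 RNA, the cause was not tested. Library size scaling moved the median of all genes from -0.00368 to 0.0174.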
